A study of Mus musculus with 6 samples.

Results

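The 10 genes described here are Sox5, Sox6, Acan, Matn1, Matn4, Hapln1, Comp, Pax1, Pax9 and Fgfr3, a set of cartilage regulators and cartilage matrix genes read in embryonic mouse stomach. They were chosen by name from 19938 genes, and each had 1 probe set on the array annotated to its symbol alone. The signals came from 3 Affymetrix arrays of SmoM2 stomach and 3 of wild type stomach, all at E13.5 (the embryonic day). SmoM2 embryos carried Nkx3.2Cre and R26-SmoM2, a Cre recombinase driven by Nkx3-2 and an active form of the hedgehog transducer Smoothened that Cre switches on from the Rosa26 locus. The labels name the controls only as wild type and do not give strain, sex, litter or pooling, so each p-value rests on the scatter among these arrays, which may be technical in part. Nkx3-2 marks the stomach mesenchyme and the sclerotome, so Cre acts in part of the cells of the stomach, and the share of recombined cells is not given. Each array measured all cell types together, and in such bulk tissue fewer cells of a type and less RNA per cell cannot be told apart.

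Cartilage forms when mesenchymal cells condense and switch on the transcription factor Sox9, which then acts together with Sox5 and Sox6. Sox5 and Sox6 have a DNA-binding HMG box and a coiled coil but no activation domain of their own, and they strengthen the action of Sox9 on genes such as Col2a1, Acan and Matn1. In the vertebral column hedgehog signal from the notochord induces Pax1 and Pax9 in the sclerotome, and with Nkx3-2 these start the cartilage programme. Sox6 is also used outside cartilage, among others in red blood cell precursors, skeletal muscle and the nervous system, and Pax9 in the endoderm of the pharynx and oesophagus.

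Hhip, Ptch1, Gli1, Smo and Nkx3-2 were read beside the genotype in the labels. Hhip, Ptch1 and Gli1 also stand in the list of hedgehog targets below, so they are not an independent check of the labels. Hhip, a decoy receptor that hedgehog signal induces, was 2.43-fold higher in SmoM2 (limma adjusted p = 0.000175), with the call kept in all 21 alternatives. Ptch1, the receptor and a target, was 1.40-fold higher (adjusted p = 0.0174), a call lost without SmoM2 3, WT 1 or WT 2 (adjusted p = 0.0749, 0.102 and 0.0745) and with adjustment for Y-linked signal (adjusted p = 0.325). Gli1, the transcription factor and standard readout of the pathway, was 1.34-fold higher and did not pass (adjusted p = 0.0727). Smo was at 12.04 ± 0.19 in SmoM2 and 11.69 ± 0.03 in wild type (log2 signal, SD, n = 3 each, limma adjusted p = 0.154), and Nkx3-2 had a log2 change of -0.12 (adjusted p = 0.648). Signals are log2 values after RMA, the normalization of the submitters, and every change is SmoM2 minus wild type on that scale. Of the 12 measured hedgehog targets 6 rose, 1 fell and 5 did not pass. Beside Hhip and Ptch1 the risers were Foxf2 (change 0.91), Myocd (0.86), Foxl1 (0.68) and Foxf1 (0.37), and the co-receptor gene Boc fell (-0.55). The list was chosen with earlier results of these data known, so its count describes the list and does not check the labels. The 7 that passed became 3 without SmoM2 3, WT 1 or WT 2 and 4 without SmoM2 1. The sex-linked genes were uneven. Xist was at 11.93, 12.37 and 11.43 in SmoM2, and at 7.11, 11.94 and 11.68 in wild type. The Y-linked gene Eif2s3y was at 8.58, 8.95 and 9.19 in SmoM2, and at 10.40, 10.09 and 8.81 in wild type. WT 1 and WT 2 thus lay above every SmoM2 array. Adjustment for Y-linked signal therefore also takes up part of the difference between the groups, and the 2 cannot be fully told apart.

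Of the 10 genes, Sox6 fell in SmoM2 and the other 9 did not pass the threshold, an adjusted p of 0.05 in limma over all genes. Over all 19938 genes 0.983% passed, 0.326% higher and 0.657% lower in SmoM2, so 1 of 10 is a count too small to read against that share. The median change of the 10 genes was 0.06, with 7 positive and 3 negative, beside a median of 0.00182 and 50.8% positive changes over all genes. In Sox5 and Sox6 the SmoM2 and wild type values did not overlap, both lower in SmoM2, while 15.7% of all genes had groups that did not overlap 10.1% lower and 5.64% higher in SmoM2. The panels of signal by array show the 10 genes on scales of equal height.

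**Figure D1:**
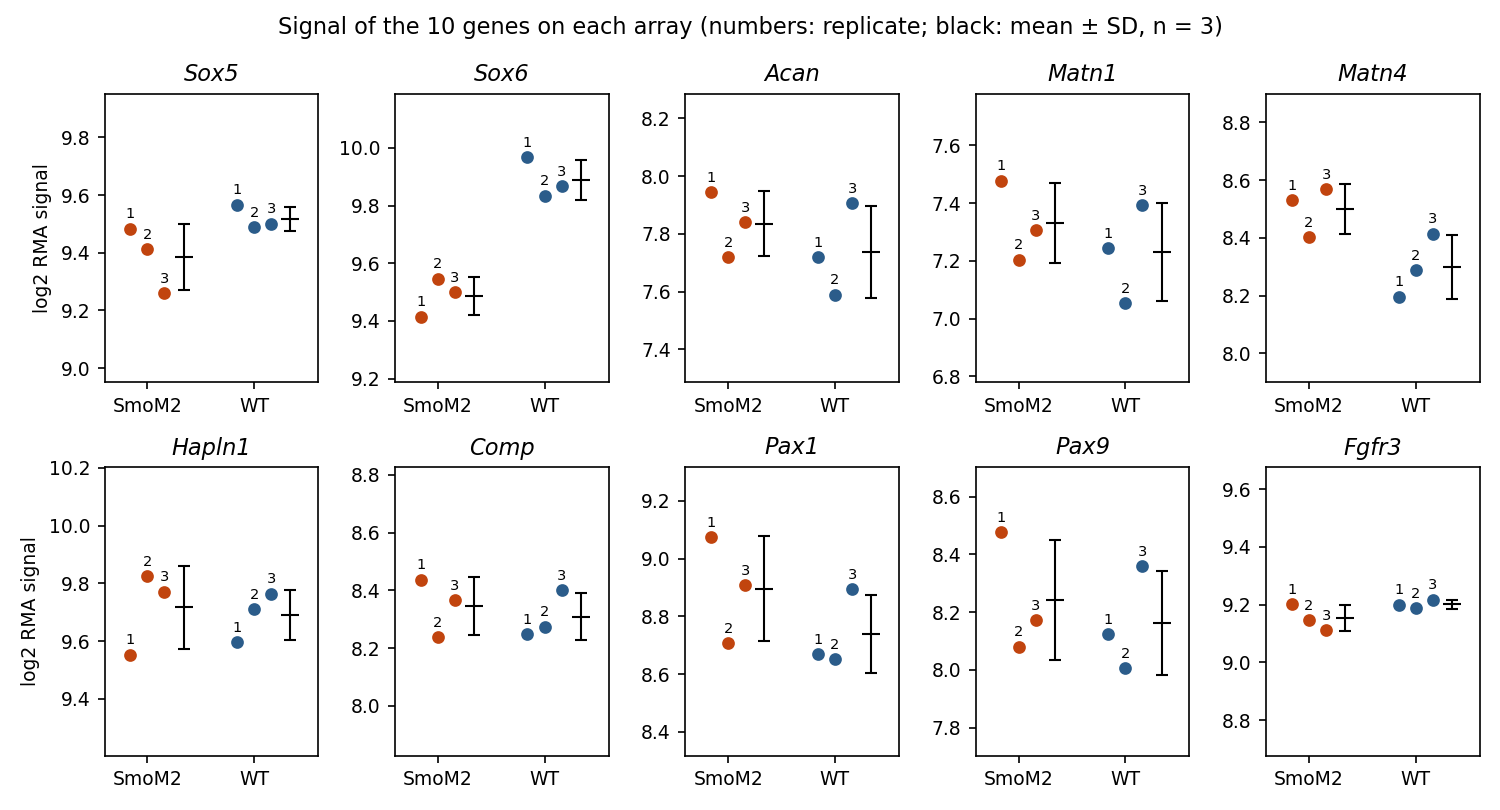
Log2 RMA signal of each of the 10 genes on the 3 SmoM2 arrays (left, orange) and the 3 WT (wild type) arrays (right, blue), with the replicate number at each point and the mean ± SD in black; every panel spans 1 unit of log2 signal. Sox6 is the gene with a clear gap, with SmoM2 at 9.41 to 9.55 and wild type at 9.83 to 9.97, and most others overlap.

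Sox6, the SoxD factor of cartilage and several other tissues, had log2 signals of 9.41, 9.55 and 9.50 in SmoM2, against 9.97, 9.83 and 9.87 in wild type (probe set 10567108). Every SmoM2 array lay below every wild type array, with a gap wider than the range within either group. The mean was 9.49 ± 0.07 in SmoM2 and 9.89 ± 0.07 in wild type (SD, n = 3 each). Sox6 was thus 1.32-fold lower in SmoM2, a log2 change of -0.40 (95% limma interval -0.56 to -0.24, adjusted p = 0.0349), and it stood at rank 162 of 19938 genes by p. The call was lost when WT 1, WT 2, WT 3, SmoM2 1 or SmoM2 3 was left out (adjusted p = 0.203, 0.0921, 0.0603, 0.0993 and 0.180) and kept without SmoM2 2 (adjusted p = 0.0444), while the change stayed between -0.43 and -0.36. It was also lost with centring on the array median (adjusted p = 0.0512) or the 75th percentile (adjusted p = 0.0712), and with adjustment for Y-linked signal (adjusted p = 0.582, change -0.34).

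**Figure D2:**
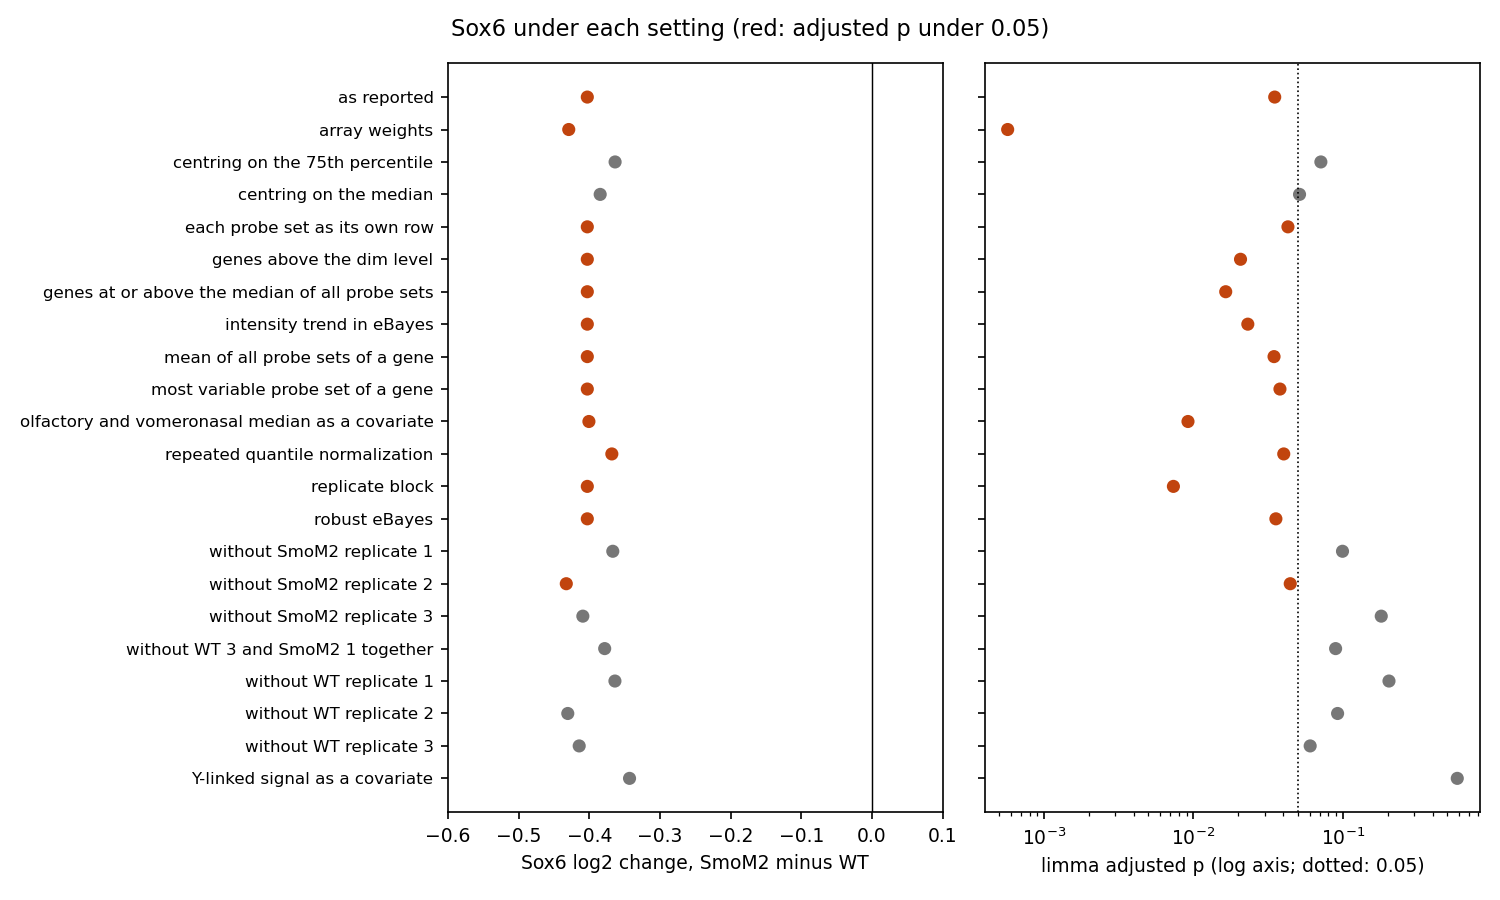
Log2 change of Sox6, SmoM2 minus WT (left), and its limma adjusted p on a log axis with 0.05 dotted (right), for the analysis as reported and each of 21 alternatives, in red where it passed. The change runs from -0.43 to -0.34 in all of them, and 12 of the 21 pass. Sox6 has 1 probe set, so settings that choose, average or separate probe sets return the same change. The intensity filters, the intensity trend, the robust fit and the replicate block also leave the change as it was and alter only the test.

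Sox5, the closest relative of Sox6 and its partner in cartilage, was at 9.48, 9.41 and 9.26 in SmoM2, against 9.57, 9.49 and 9.50 in wild type (probe set 10549200). The groups did not overlap, but the highest SmoM2 value and the lowest wild type value nearly met. Its log2 change was -0.13 (95% interval -0.31 to 0.04, limma adjusted p = 0.628). The difference between the log2 values of Sox6 and Sox5 was -0.07, 0.13 and 0.24 on the SmoM2 arrays, and 0.40, 0.35 and 0.37 on the wild type arrays. It was thus lower by 0.27 in SmoM2 (mean 0.10 ± 0.16 in SmoM2 and 0.37 ± 0.03 in wild type, two-sided exact permutation p = 0.1, the smallest p that 3 against 3 arrays allow). Sox13, the third SoxD gene, had a log2 change of 0.00108 (95% interval -0.17 to 0.17, adjusted p = 0.998).

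Sox9, the master regulator of cartilage, which the stomach also uses in its mesenchyme and epithelium, was at 10.34, 10.56 and 10.45 in SmoM2, against 10.62, 10.74 and 10.62 in wild type. All SmoM2 values lay below all wild type values, yet the change of -0.21 did not pass (95% interval -0.39 to -0.03, limma adjusted p = 0.360).

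The RefSeq promoter windows of Sox6, Sox5 and Pax1 are shown because Sox6 is the gene that changed, Sox5 its relative with a smaller difference, and Pax1 the gene among the 10 best known as induced by hedgehog signal. Each window runs from 250 bases before to 50 bases after a transcript start (build GRCm38.p6), is printed along the strand of its gene, and was found for 9 of the 10 genes (16 windows in all, without Comp). Capitals mark ACAAAG or ACAATG and their reverse complements CTTTGT and CATTGT in Sox6 and Sox5, letters to which the HMG box of Sox proteins binds, and ACCACCC or its reverse complement GGGTGGT, the inner part of the Gli consensus GACCACCCA, in Pax1. The first 2 of the 6 Sox6 windows lie at chr7:116038695-116038994 and chr7:116030998-116031297 on the minus strand, that of Sox5 at chr6:143947057-143947356 on the minus strand and that of Pax1 at chr2:147364744-147365043 on the plus strand.
Sox6, window 1: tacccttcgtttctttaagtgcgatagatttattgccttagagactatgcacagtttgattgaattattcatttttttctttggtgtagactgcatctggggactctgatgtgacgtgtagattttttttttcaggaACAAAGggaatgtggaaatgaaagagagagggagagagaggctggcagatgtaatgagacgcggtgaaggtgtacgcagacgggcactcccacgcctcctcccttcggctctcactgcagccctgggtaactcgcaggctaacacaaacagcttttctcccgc
Sox6, window 2: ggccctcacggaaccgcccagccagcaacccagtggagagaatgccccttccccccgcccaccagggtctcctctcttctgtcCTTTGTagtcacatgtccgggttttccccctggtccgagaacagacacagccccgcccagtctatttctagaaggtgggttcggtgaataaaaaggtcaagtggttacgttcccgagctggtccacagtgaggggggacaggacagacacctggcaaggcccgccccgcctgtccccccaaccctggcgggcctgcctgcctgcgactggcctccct
Sox5: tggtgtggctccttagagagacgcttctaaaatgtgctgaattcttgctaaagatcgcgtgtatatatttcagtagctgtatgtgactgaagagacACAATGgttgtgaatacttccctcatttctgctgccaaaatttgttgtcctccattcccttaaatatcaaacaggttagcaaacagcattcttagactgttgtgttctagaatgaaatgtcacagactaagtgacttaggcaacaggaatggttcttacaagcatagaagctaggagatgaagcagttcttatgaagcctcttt
Pax1: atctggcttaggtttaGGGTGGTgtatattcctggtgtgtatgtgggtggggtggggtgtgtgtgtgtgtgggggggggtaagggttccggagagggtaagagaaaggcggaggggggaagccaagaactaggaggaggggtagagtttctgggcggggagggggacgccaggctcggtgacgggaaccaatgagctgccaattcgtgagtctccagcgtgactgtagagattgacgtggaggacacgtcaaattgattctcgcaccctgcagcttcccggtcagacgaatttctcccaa

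ACAAAG stood on either strand in 5 of the 6 Sox6 windows and in no window of the other 8 matched genes, while 18.7% of all 32851 windows held it. ACAATG stood in 4 of the 16 windows, from Sox5, Sox6 and Pax9, and in 12.6% of all windows. The full Gli consensus GACCACCCA or TGGGTGGTC was in 0 of the 16 windows (0.253% of all), and ACCACCC in 1, that of Pax1 (4.61% of all). The Sox6 windows hold 36.7% to 63.3% G and C beside a median of 52.7% over all windows, and the shares were not adjusted for it. A match is a description of letters in 1 stretch of sequence and not a site in use, and which of the starts the stomach uses was not measured.

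Among the cartilage matrix genes no change passed. Acan, the large proteoglycan that gives cartilage its water content, was at 7.94, 7.72 and 7.84 in SmoM2, against 7.72, 7.59 and 7.91 in wild type (probe set 10554249). The groups overlapped (log2 change 0.10, 95% interval -0.12 to 0.31, limma adjusted p = 0.815). Matn1, a matrilin that links collagen fibrils and proteoglycans, was at 7.48, 7.20 and 7.31 in SmoM2, against 7.24, 7.05 and 7.39 in wild type (probe set 10508676). Its groups overlapped as well (change 0.10, interval -0.13 to 0.33, adjusted p = 0.822). Acan and Matn1 were the 2 of the 10 genes with means at or below 8.05, the 95th percentile of 1194 olfactory and vomeronasal receptor genes, which the stomach is not known to use, so their signals cannot be told from those of dim probe sets.

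Matn4, the matrilin found in many connective tissues besides cartilage, was at 8.53, 8.40 and 8.57 in SmoM2, against 8.20, 8.29 and 8.41 in wild type (probe set 10489471). The lowest SmoM2 value lay just under the highest wild type value. Its change of 0.20 was the largest increase among the 10 genes, and its own interval of 0.02 to 0.38 left out 0, but it did not pass over all genes (limma adjusted p = 0.417). Hapln1, the link protein that fixes aggrecan to hyaluronan, was at 9.55, 9.82 and 9.77 in SmoM2, against 9.60, 9.71 and 9.76 in wild type (probe set 10406519). The wild type values lay within the range of the SmoM2 values (change 0.03, interval -0.17 to 0.23, adjusted p = 0.959). Comp, a thrombospondin of cartilage and tendon, was at 8.44, 8.24 and 8.36 in SmoM2, against 8.25, 8.27 and 8.40 in wild type (probe set 10572378). These overlapped too (change 0.04, interval -0.14 to 0.22, adjusted p = 0.929). The sign of Hapln1 and Comp turned when single arrays were left out.

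The sclerotome regulators and the receptor did not pass either. Pax1, the paired-box factor of the sclerotome, was at 9.07, 8.71 and 8.91 in SmoM2, against 8.67, 8.65 and 8.90 in wild type (probe set 10476874). WT 3 lay within the SmoM2 range (change 0.16, interval -0.08 to 0.40, limma adjusted p = 0.695). Pax9, its close relative, was at 8.48, 8.08 and 8.17 in SmoM2, against 8.12, 8.01 and 8.36 in wild type (probe set 10395849). Here the spread within each group was wider than the difference of the means, and the sign turned without SmoM2 1 (change 0.08, interval -0.19 to 0.35, adjusted p = 0.889). Fgfr3, the fibroblast growth factor receptor that slows growth plate cartilage, was at 9.20, 9.15 and 9.11 in SmoM2, against 9.20, 9.19 and 9.22 in wild type (probe set 10521111). Its values were the tightest of the 10 genes (change -0.05, interval -0.19 to 0.10, adjusted p = 0.866). For the 9 genes that did not pass, the intervals lay between -0.31 and 0.40, so changes of that size remain possible.

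**Figure D3:**
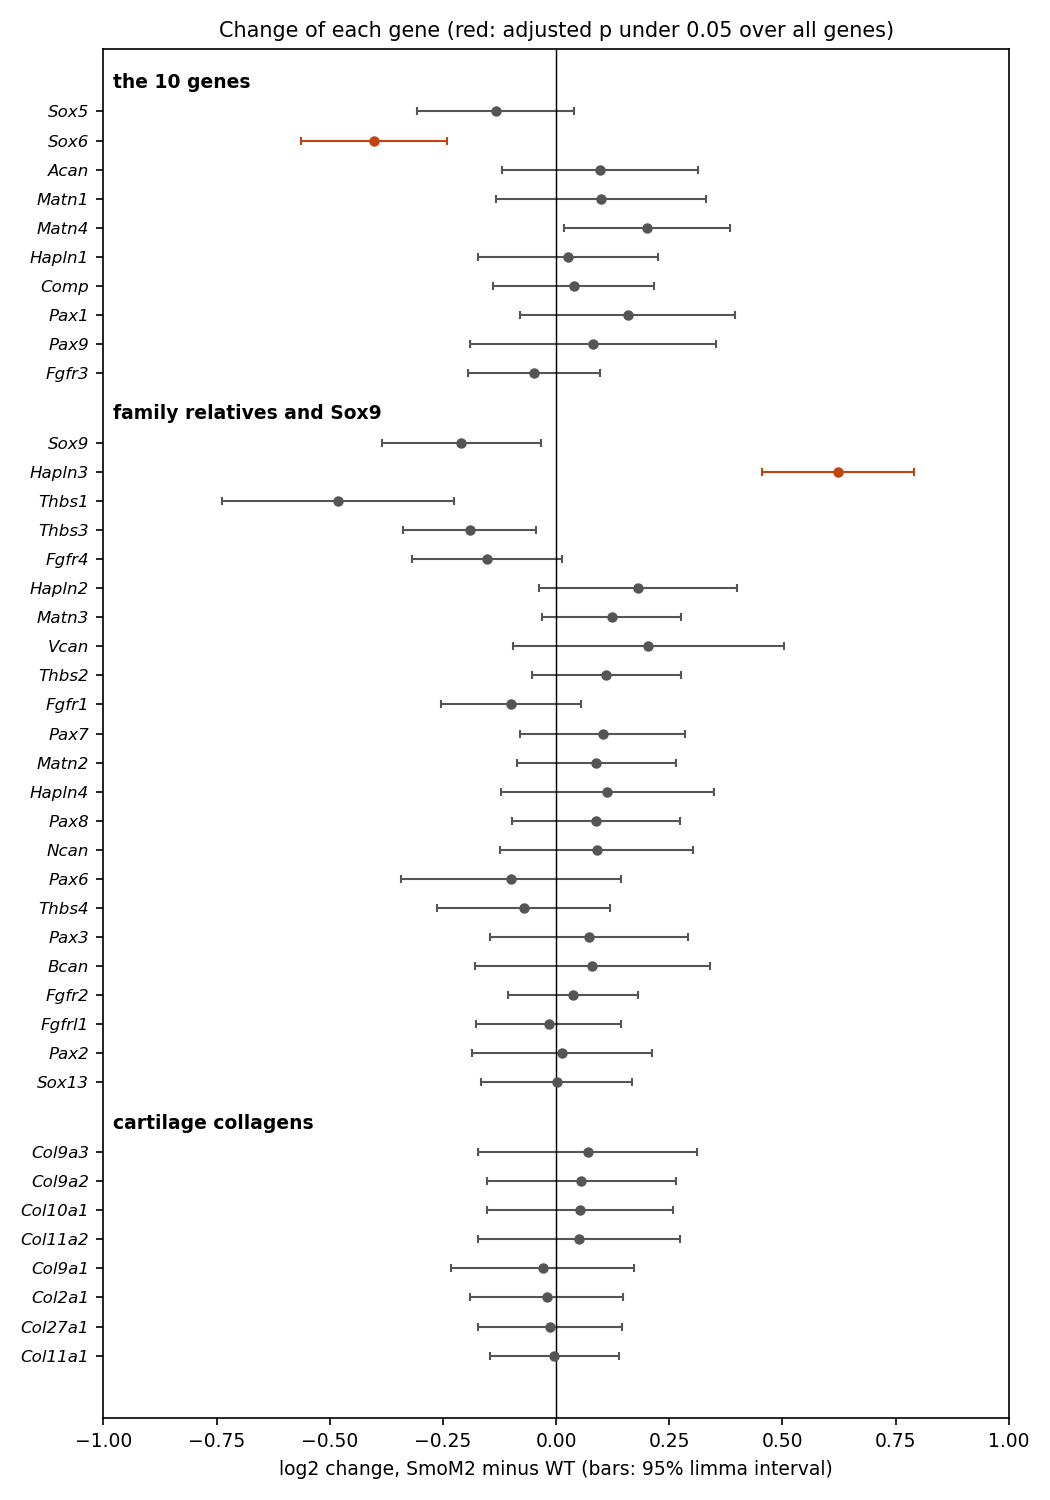
Log2 change, SmoM2 minus WT, with its 95% limma interval, for the 10 genes, for Sox9 and 22 relatives by family, and for the 8 cartilage collagens, in red where the adjusted p was under 0.05. Sox6 at -0.40 and Hapln3 at 0.62 are the 2 that passed, and the cartilage collagens lie between -0.03 and 0.07.

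Of 22 relatives by family, 1 rose, 0 fell and 21 did not pass (median change 0.08, 15 positive). The riser was Hapln3, a link protein of the same family as Hapln1 that is made in many tissues, at 9.33, 9.36 and 9.44 in SmoM2, against 8.64, 8.80 and 8.82 in wild type. All SmoM2 values exceeded all wild type values, and the mean was 1.54-fold higher (log2 change 0.62, 95% interval 0.45 to 0.79, limma adjusted p = 0.00734). The call was lost without SmoM2 3 (adjusted p = 0.0675) and with adjustment for Y-linked signal (adjusted p = 0.157). Hapln2 had a change of 0.18 and Hapln4 of 0.11, and whether Hapln3 differed from them was not tested. Among the thrombospondins Thbs1, an inhibitor of vessel growth, had a change of -0.48 (adjusted p = 0.106), Thbs2 of 0.11, Thbs3 of -0.19 and Thbs4 of -0.07. The matrilins Matn2 and Matn3 were at 0.09 and 0.12, and the proteoglycans Vcan, Bcan and Ncan at 0.20, 0.08 and 0.09. The receptors Fgfr1, Fgfr2, Fgfr4 and Fgfrl1 were at -0.10, 0.04, -0.15 and -0.02, and the paired-box genes Pax2, Pax3, Pax6, Pax7 and Pax8 at 0.01, 0.07, -0.10, 0.10 and 0.09. Of the 22 relatives 3 were at or below the dim level of 8.05, Matn3, Hapln4 and Pax3.

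The 8 cartilage collagens, of which Col2a1 is the main fibril collagen and a target of Sox9, Sox5 and Sox6, had 0 members past the threshold, 4 positive changes and a median of 0.02. Col2a1 was at 9.70, 9.56 and 9.63 in SmoM2, against 9.65, 9.57 and 9.74 in wild type (change -0.02, interval -0.19 to 0.15, limma adjusted p = 0.963). Its groups overlapped over most of their range. Of the collagen that coats these fibrils, Col9a1, Col9a2 and Col9a3 were at -0.03, 0.06 and 0.07. Col11a1 and Col11a2, of the collagen in the fibril core, were at -0.0039 and 0.05, the fibril collagen Col27a1 at -0.01, and Col10a1 of hypertrophic cartilage, which was dim, at 0.05. The sign of each of the 8 turned under at least 1 alternative, so none has a settled direction. In a list of 11 measured cartilage genes, Sox9 among them, 5 were at or below the dim level and 0 passed. The log2 of the summed signal of the 11 was 12.33 to 12.44 in SmoM2 and 12.35 to 12.50 in wild type. Sox9, which the stomach also uses, had the highest mean of the 11 (10.45 in SmoM2, 10.66 in wild type). The sum is thus not a level of cartilage alone.

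Of 31 measured cartilage matrix proteins, among them Acan, Matn1, Matn4, Hapln1 and Comp, 1 rose and 30 did not pass (23 positive changes, median 0.07, 13 at or below the dim level). Epyc, a small proteoglycan first described in growth plate cartilage, was at 9.52, 9.37 and 9.48 in SmoM2, against 8.44, 8.33 and 8.29 in wild type. The gap between the groups was several times the range within either, and the call held in all 21 alternatives (log2 change 1.10, SE 0.07, limma adjusted p = 0.00066).

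Of 31 chondrogenic regulators, Sox5, Sox6 and Sox9 among them, 0 rose and 1 fell, Sox6 itself, with 20 negative changes and a median of -0.09. Zbtb20, a zinc finger factor that acts in late cartilage cells, had a change of -0.52 (limma adjusted p = 0.111), Arid5b, a partner of Sox9 in cartilage, of -0.38 (adjusted p = 0.09) and Runx1 of -0.29 (adjusted p = 0.115). Of 23 genes of the sclerotome and somites none passed in limma (median 0.05, 16 positive), with Mfap4 at -0.33 and Meox2 at 0.33. Of 28 genes of growth plate signalling Ptch1 rose and the growth factor gene Igf1 fell (change -0.53, adjusted p = 0.0245), with a median of -0.06. The call of Igf1 was lost without SmoM2 1, SmoM2 3, WT 1 or WT 2 (adjusted p = 0.0822, 0.144, 0.0981 and 0.0921), without WT 3 and SmoM2 1 together (0.0598) and with adjustment for Y-linked signal (0.341). Of 25 genes of chondroitin sulphate synthesis 0 passed, with the sulphotransferase Chst15 at 0.23 and the sulphate transporter Slc26a2 at -0.17. Of 15 bone genes, 8 at or below the dim level, 0 passed, with Col1a1 at -0.33 (adjusted p = 0.0508) and the alkaline phosphatase Alpl at -0.29. Of 16 genes of tendon and perichondrium 1 fell, Eya1, a transcription cofactor and phosphatase, at 9.01, 9.09 and 9.22 in SmoM2, against 9.81, 9.78 and 9.60 in wild type (1.54-fold lower in SmoM2, limma adjusted p = 0.0142). Eya1 lost the call without SmoM2 3, WT 1 or WT 2 (adjusted p = 0.0503, 0.0835 and 0.0653) and with adjustment for Y-linked signal (adjusted p = 0.265, change -0.46).

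**Figure D4:**
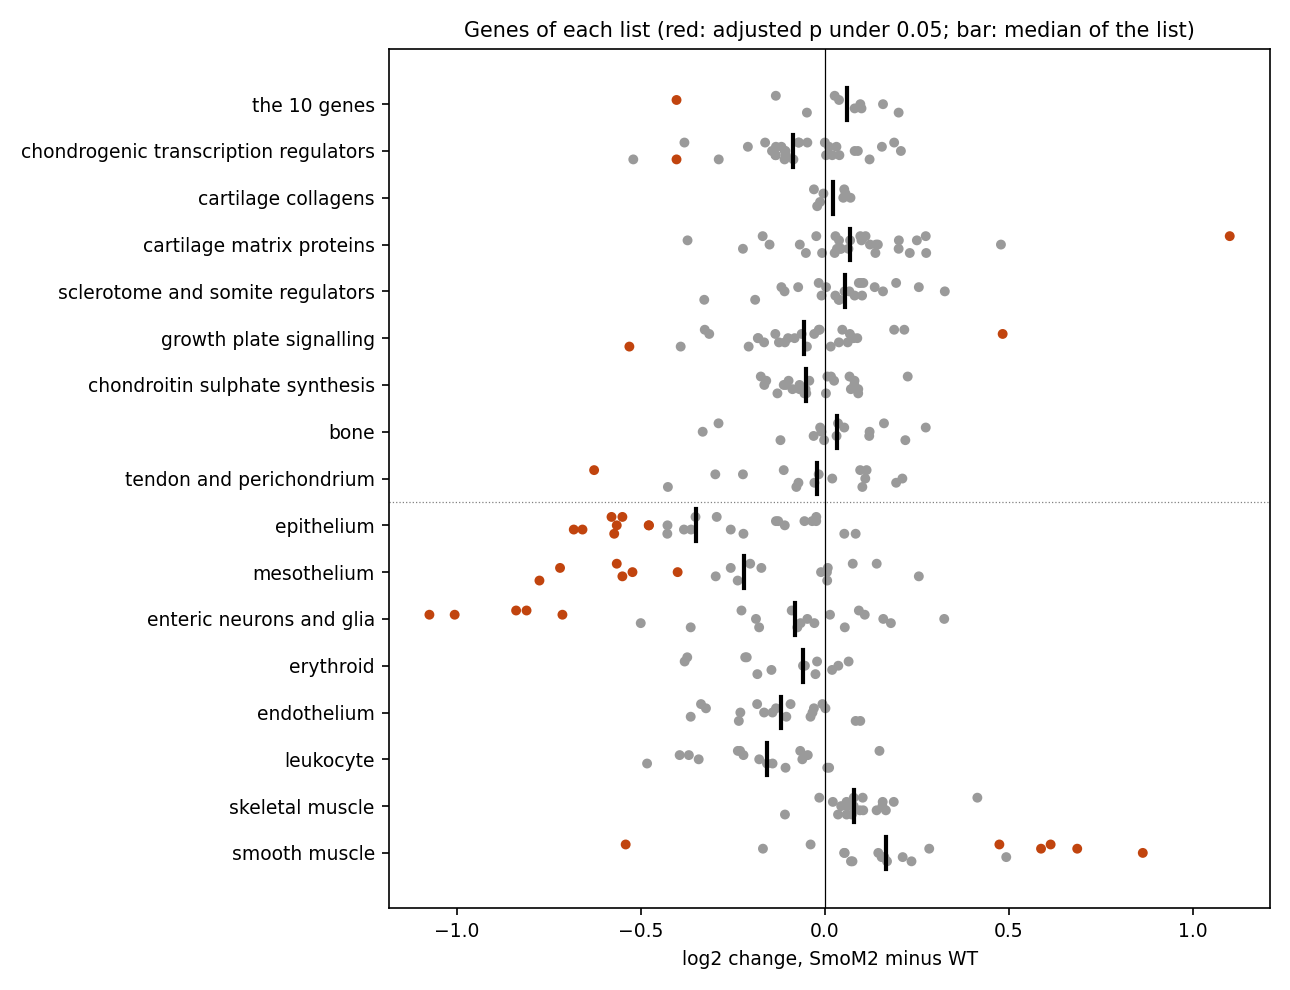
Log2 change, SmoM2 minus WT, of each gene in the cartilage, bone and tendon lists (above the dotted line) and in lists of markers of other cell types (below it), in red where the adjusted p was under 0.05, with the list median as a black bar. In the epithelium list 8 of 25 are lower and the median is -0.35, while the median of the 10 genes is 0.06.

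Lists of markers of other cell types held changes in both directions. In the epithelium list 8 of 25 markers fell and 0 rose, and the log2 of the summed signal was 14.40 to 14.54 in SmoM2 and 14.86 to 14.97 in wild type. The 6 largest changes were in Esrp1 (-0.68), Cldn6 (-0.66), Cdh1 (-0.58), Gata6 (-0.57), Krt18 (-0.57) and Krt8 (-0.55), genes of epithelial splicing, junctions, gut identity and keratin filaments. In the mesothelium list 6 of 18 fell and 0 rose (14.73 to 14.87 in SmoM2, 15.09 to 15.11 in wild type). Of these 6, Krt18 and Krt8 stand in the epithelium list as well, and the other 4 were Igfbp5 (-0.78), Bnc1 (-0.72), Wt1 (-0.52) and Krt7 (-0.40). The mesothelial surface genes Msln and Muc16 had changes of 0.08 and 0.01, Aldh1a2 of retinoic acid synthesis of 0.14 and Tbx18 of 0.26, and these did not pass. Muc16 and Tbx18 were at or below the dim level, which limits what the arrays can show for them. In the list of enteric neurons and glia 5 of 22 fell and 0 rose (14.40 to 14.58 in SmoM2, 14.62 to 14.78 in wild type). The 5 were Dcx (-1.07), Nefm (-1.01), Nefl (-0.84), Dbh (-0.81) and Fabp7 (-0.71). Changes in this list were 15 negative and 7 positive, with a median of -0.08. Among the 7 were Ednrb (0.32), Sox10 (0.11) and Ret (0.05), which did not pass. In the smooth muscle list Myocd (0.86), which is also among the hedgehog targets, Actg2 (0.69), Myl9 (0.61), Synpo2 (0.59) and Acta2 (0.47) rose and Des (-0.54) fell, 6 of 20, with sums of 15.34 to 15.48 in SmoM2 and 15.12 to 15.17 in wild type.

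These counts depended on single arrays. Without SmoM2 3 the number past the threshold was 0 in the epithelium list, 0 in mesothelium, 2 in enteric neurons and glia and 1 in smooth muscle. Without WT 1 the numbers in the same order were 0, 2, 3 and 1, without WT 2 they were 4, 2, 4 and 2, and without SmoM2 1 they were 5, 3, 4 and 2. With adjustment for Y-linked signal they were 0, 0, 2 and 1.

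Of the erythroid markers 0 of 13 passed in limma, with sums of 15.34 to 15.47 in SmoM2 and 15.50 to 15.65 in wild type. Hbb-bh1, an embryonic globin, had a change of -0.38 and Alas2, of haem synthesis in red cells, of -0.37. Of the skeletal muscle markers 0 of 20 passed (12.69 to 12.95 in SmoM2, 12.64 to 12.79 in wild type), with the actin gene Acta1 at 0.41 and the troponin gene Tnnc2 at 0.19. In this list 8 of 20 were at or below the dim level. Endothelial markers (0 of 18 past the threshold) had sums of 14.44 to 14.58 in SmoM2 and 14.64 to 14.67 in wild type, with Kdr at -0.36 and Stab1 at -0.34. Leukocyte markers (0 of 17) had sums of 12.78 to 12.98 in SmoM2 and 13.07 to 13.14 in wild type, with Pf4 at -0.48 and Lyz2 at -0.39. The part of these cell types in the change of Sox6 was not tested.

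The genes with the pattern most like that of Sox6 were sought by Pearson correlation over the 6 arrays, among 14131 other genes with means above the dim level. The 5 highest were Ssbp3 (r = 0.999), a cofactor of LIM-domain complexes, Atp8b1 (0.997), a lipid flippase, Flrt2 (0.996) and Alcam (0.995), both cell adhesion proteins, and Ndnf (0.994), a secreted neurotrophic factor. None of the 5 had overlapping groups, so each correlation holds the group difference as well as the spread within groups, and it is given as a description. Flrt2 was 1.59-fold lower in SmoM2 (limma adjusted p = 0.00466), Alcam 1.40-fold (adjusted p = 0.0286) and Atp8b1 1.36-fold (adjusted p = 0.0276). Ndnf was 2.55-fold lower (adjusted p = 0.000696), and Ssbp3, with a change of -0.08 (adjusted p = 0.767), did not pass. Of the 21 alternatives Ndnf passed in all, Flrt2 in 20, Alcam in 15 and Atp8b1 in 14. The calls of Alcam and Atp8b1 were lost without SmoM2 1 (adjusted p = 0.0811 and 0.0852), SmoM2 3 (0.133 and 0.141), WT 1 (0.160 and 0.155) or WT 2 (0.0884 and 0.0745). With adjustment for Y-linked signal the adjusted p was 0.107 for Flrt2, 0.512 for Alcam and 0.496 for Atp8b1.

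Most of the other genes of the set, though not Sox5, Matn4 or Hapln1, shared their highest arrays, and these differed from those of Sox6. In Acan, Matn1, Comp, Pax1, Pax9 and Fgfr3, 6 of the 10 genes, SmoM2 1 was the highest SmoM2 array and WT 3 the highest wild type array. The same held for 7 of the 8 cartilage collagens (87.5%), for 50.3% of the olfactory and vomeronasal receptor genes and for 27.1% of all genes. The median of those receptor genes was 6.40, 6.16 and 6.24 on the SmoM2 arrays, and 6.28, 6.18 and 6.32 on the wild type arrays, so SmoM2 1 and WT 3 were also highest in their groups there. Its part in the spread of the 6 genes was not tested. Sox6 ran the other way among SmoM2 arrays, with SmoM2 1 lowest. With that median as a covariate Sox6 changed by -0.40 (limma adjusted p = 0.00919), and without SmoM2 1 and WT 3 it changed by -0.38 (adjusted p = 0.0893), both chosen after seeing the data.

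**Figure D5:**
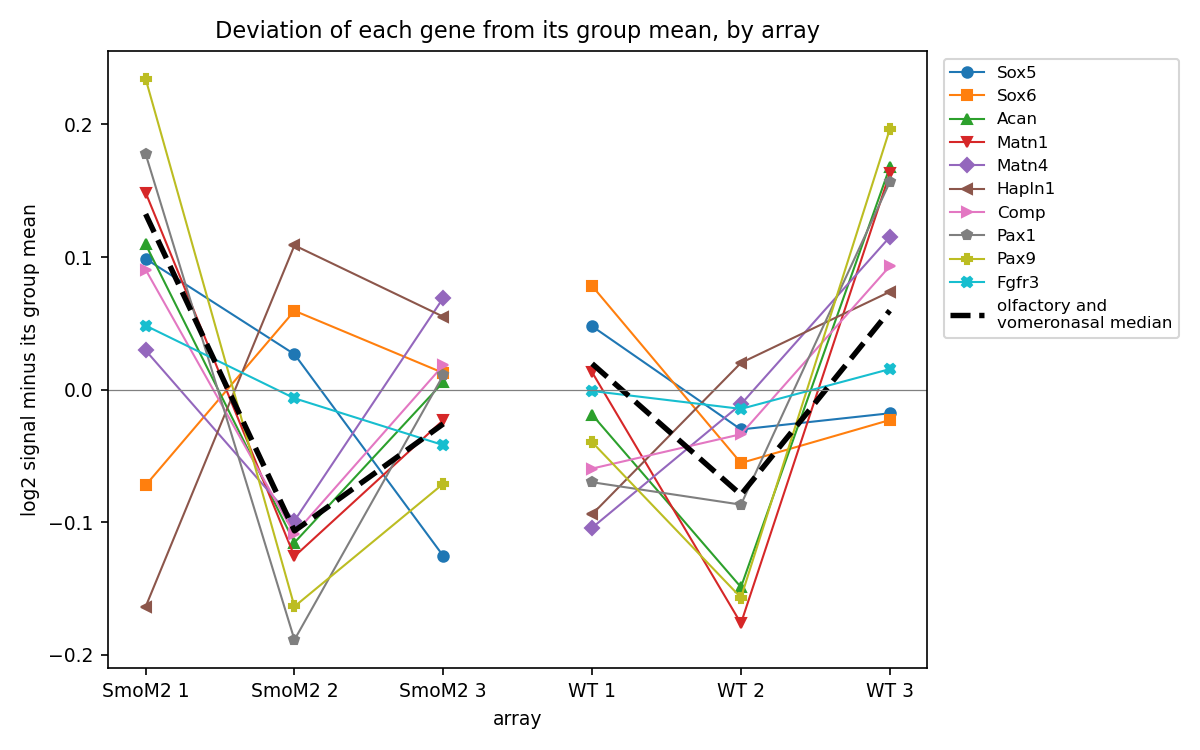
Log2 signal of each of the 10 genes minus its group mean, by array (SmoM2 left, WT right; lines join the values of 1 gene within a group), with the median of olfactory and vomeronasal receptor genes as a dashed black line. Acan, Matn1, Pax1 and Pax9 are high on SmoM2 1 and WT 3 and low on SmoM2 2 and WT 2, as the dashed line is, and Sox6 and Hapln1 are low on SmoM2 1.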

How the data were processed

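The authors deposited log2 signals of 35556 probe sets on 6 arrays; the submitters' processing notes name RMA and affy, without versions in the sources used here. This method gives all arrays a like distribution and can shrink changes of dim genes. Deposited log2 values ran from 3.79 to 14.72, and array medians from 8.56 to 8.62. Precision is limited by having 3 arrays a group, and no detection calls entered. Groups came from the sample titles. The platform annotation gave 1 symbol to 21789 probe sets and several to 1621, and each of the 19938 genes was represented by its probe set with the highest mean. SmoM2 and wild type were compared with limma 3.58.1 in R 4.3.3 (lmFit, eBayes, default settings), with Benjamini-Hochberg adjustment over all genes and a threshold of 0.05. The method was also run on simulated data with noise drawn independently for each gene and array. That setting leaves out deviations that genes share on an array, so it does not test the calls under them.

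The 10 genes and all lists were chosen with earlier results of these data known. Named were the 10 genes, their family relatives, hedgehog genes read beside the labels, all cartilage collagens, and the 5 genes most like Sox6. Also named were up to 6 passing members of each list or else the 2 with the largest change. Zbtb20, Arid5b, Runx1, Foxf1, Msln, Muc16, Aldh1a2, Tbx18, Ednrb, Sox10, Ret and the sex-linked genes were named after their values were seen. Alternatives were 19 planned settings and 2 added after seeing the data. Promoter sequences are from RefSeq (GRCm38.p6).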

Additional observations from a re-analysis of the deposited data

How the results depend on the processing

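The 21 alternatives gave Sox6 a log2 change of -0.43 to -0.34, and 12 passed. Many of the 12 could not move the change. Sox6 has 1 probe set, and the intensity filters, intensity trend, robust fit and replicate block alter only the test. Sox6 did not pass when centred on the median (-0.38) or the 75th percentile (-0.36), or with adjustment for Y-linked signal (-0.34). Nor did it pass without WT 3 and SmoM2 1 together (-0.38). These 4 alternatives left 0 of the 10 genes past the threshold. Leaving out single arrays gave -0.43 to -0.36 for Sox6, 0 to 1 of the 10 genes and 32 to 247 of all genes. Of all genes, 196 passed as reported, 120 with centring on the 75th percentile, 336 with an intensity trend, 698 with the replicate number as a block, 729 with the olfactory and vomeronasal median as a covariate, 22 with adjustment for Y-linked signal and 4110 with array weights, whose estimation stopped before it converged. Those weights called 4 of the 10 genes, Sox5 (-0.26), Sox6, Matn4 and Pax1, 2 lower and 2 higher. With the replicate block Sox6 had an adjusted p of 0.00734 in limma and remained the 1 of the 10 that passed. Deviations of same-numbered arrays correlated at -0.10, 0.52 and 0.06 over genes, so the numbers were not taken as pairs.

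Signs that turned belonged to changes that had not passed. With adjustment for Y-linked signal Acan was at -0.041, Matn1 at -0.038, Comp at -0.057, Hapln1 at -0.012, Pax1 at -0.0013, Pax9 at -0.13, Matn2 at -0.0080, Bcan at -0.20, Pax2 at -0.12, Pax7 at -0.013, Pax8 at -0.035, Sox13 at -0.065, Col10a1 at -0.099, Col11a2 at -0.11, Col9a2 at -0.11 and Col9a3 at -0.076. Centring on the 75th percentile gave Col11a1 0.035, Col27a1 0.026, Col2a1 0.018, Col9a1 0.0097 and Fgfrl1 0.023, centring on the median Col11a1 0.014, Col27a1 0.0052 and Fgfrl1 0.0018, and repeated quantile normalization Col11a1 0.024, Col27a1 0.028, Col2a1 0.023, Col9a1 0.00077 and Fgfrl1 0.019. Array weights gave Col27a1 0.0094 and Fgfrl1 0.081. Without WT 3 and SmoM2 1 together Col11a1 was at 0.010, Fgfrl1 at 0.030, Pax2 at -0.011 and Sox13 at -0.013, and with the olfactory and vomeronasal median as a covariate Sox13 was at -0.0043. Leaving out single arrays gave Hapln1 -0.028 to 0.11, Comp -0.0067 to 0.093, Pax9 -0.036 to 0.18, Pax2 -0.065 to 0.069, Pax6 -0.23 to 0.00071, Sox13 -0.044 to 0.052, Fgfrl1 -0.058 to 0.021, Col2a1 -0.063 to 0.025, Col9a1 -0.087 to 0.045, Col9a2 -0.022 to 0.13, Col9a3 -0.034 to 0.16, Col10a1 -0.017 to 0.14, Col11a1 -0.025 to 0.0070, Col11a2 -0.024 to 0.13 and Col27a1 -0.042 to 0.028. Of 399 list counts under the alternatives 109 moved, by over 1.5 times or to or from 0. Of 399 list medians 19 moved by more than the spread between replicates. The cause of these shifts was not tested. Acan and Matn1 lie at the level of dim probe sets, which limits what the arrays can show for them.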
